A study of Rattus norvegicus with 4 samples.

Results

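The liver transcripts of 6 rat genes of carotenoid and retinoid metabolism were measured on BeadArrays, which read each transcript as the brightness of beads carrying probes to it. The genes were Bco1 and Bco2 (Bcmo1 and Bcdo2 in the deposited table), which cleave carotenoids, Rdh16 (Rdh2 in the table), a retinol dehydrogenase, the aldehyde dehydrogenases Aldh1a1 and Aldh1a7, and Rbp4, the plasma carrier of retinol. They were found by their symbols, each with 1 row, and were 6 of the 21791 rows of the table. They had been chosen with their signals on these samples in view, so that every difference given for them is a description, without a test.

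The series held 1 sample of total liver RNA for each of 4 groups of male Wistar rats aged 4 months: undernourished before birth (labelled FR30) and fed a high-fat diet, FR30 on the standard diet, control offspring on the high-fat diet, and control offspring on the standard diet. The labels leave out the animals per sample, the diet composition and the timing and degree of the food restriction. With 1 sample per group, no difference could be set against the spread between animals, and no p-value for a difference was computed. Each value has beside it the STDEV that the table gives for it. Whether it spans beads, probes, arrays or animals, and how many, the table does not state.

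Retinoids reach the body as retinyl esters or as carotenoids. Bco1 splits beta-carotene at its central double bond into retinal, whereas Bco2 cleaves carotenoids off centre and also accepts xanthophylls. Retinol and retinal are interconverted by dehydrogenases, retinal is oxidised irreversibly to retinoic acid, and retinoic acid acts through the nuclear receptors Rar and Rxr. The liver stores most of the body's vitamin A, as retinyl esters in stellate cells, and hepatocytes release retinol bound to Rbp4.

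The proximal promoters of the 2 carotenoid-cleaving genes and of Aldh1a1 are shown because the levels of the first 2 genes followed 1 order over the samples and those of Aldh1a1 another. Each sequence is the 250 bases before the annotated start in RefSeq's GRCr8 assembly, at chr19:62057890-62058139 on the plus strand for Bco1, chr8:59803598-59803847 on the minus strand for Bco2 and chr1:227537370-227537619 on the plus strand for Aldh1a1. Capitals mark exact matches, on either strand, to 4 motifs: the nuclear receptor half-site AGGTCA, the TATA box TATAAA, the CCAAT box CCAAT and the octamer ATGCAAAT.
Bco1: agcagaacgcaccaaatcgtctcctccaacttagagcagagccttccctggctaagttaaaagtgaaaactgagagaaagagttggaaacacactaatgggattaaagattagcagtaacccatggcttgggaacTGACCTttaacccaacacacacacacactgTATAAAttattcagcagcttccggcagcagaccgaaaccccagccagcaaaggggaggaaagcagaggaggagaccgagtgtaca
Bco2: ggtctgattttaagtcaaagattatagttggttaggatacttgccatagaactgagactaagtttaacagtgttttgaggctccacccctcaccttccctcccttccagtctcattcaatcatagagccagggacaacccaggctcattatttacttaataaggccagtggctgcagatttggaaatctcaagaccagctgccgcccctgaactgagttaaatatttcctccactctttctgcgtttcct
Aldh1a1: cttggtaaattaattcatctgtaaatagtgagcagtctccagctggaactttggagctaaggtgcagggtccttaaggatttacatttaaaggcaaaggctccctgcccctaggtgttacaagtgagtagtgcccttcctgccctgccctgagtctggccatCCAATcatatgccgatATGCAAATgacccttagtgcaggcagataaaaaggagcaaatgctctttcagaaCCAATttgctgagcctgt
The Bco1 promoter held the half-site in reverse orientation at bases -115 to -110, counted back from the start, and a TATA box at -85 to -80. In Bco2 none of the 4 motifs was found in this window. The Aldh1a1 promoter held CCAAT at -88 to -84 and at -18 to -14, and between them the octamer at -72 to -65. Among 33465 rat promoters of the same length, 14.1% held the half-site, 12.9% the TATA box, 34.0% CCAAT and 1.56% the octamer, and no match overlapped another in the promoters shown. The Rbp4 promoter (chr1:245313552-245313801, minus strand) held a TATA box at -50 to -45 and had a G and C content of 70.8%, against a median of 51.2% over all promoters. A match is a description of letters, and no match was taken as a site. RefSeq promoters matched 4 of the 6 genes; those of Rdh16 and Aldh1a7 were not analysed here.

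All 6 genes were detected on all 4 samples, with a detection p-value under 0.05 and at most 0.00848. Their STDEV was 0.801% to 10.5% of the signal over the 24 values. Signals below are the deposited normalized intensities, which still hold a background with a mean of 153 to 154 in each sample. Differences are log2 differences after removal of that background and quantile normalization, and a gene was counted as higher or lower at 1.5-fold or more. The STDEV passed 20% of the signal for 114 genes of the FR30 standard sample, against 0 in the FR30 high-fat, 0 in the control high-fat and 1 in the control standard sample, and none of the 6 genes was among them. Each sample detected between 9001 and 9226 genes.

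The liver label was checked against marker genes. Of 8 hepatocyte markers with a row, 7 were detected on all 4 samples, and none of them passed 1.5-fold in any of the 4 comparisons. Tf, Serpina1 and Fgb among them had signals of 46787 or more in every sample. Whether their probes were at the ceiling of the scale was not tested, so their lack of a difference was not read. Adipocyte markers summed to 2877 in the FR30 high-fat, 9146 in the FR30 standard, 2940 in the control high-fat and 2288 in the control standard sample. Skeletal muscle markers summed to 785 in the FR30 high-fat, 1436 in the FR30 standard, 795 in the control high-fat and 817 in the control standard sample. The FR30 standard sample stood apart in both lists of the normalized table, with wide STDEVs, such as 4928 on a Fabp4 signal of 3020.1. In the non-normalized table the difference of FR30 from control offspring on the standard diet was -1.25 for Fabp4, against 4.74 in the normalized table, 0.05 against 1.55 for Cfd and 0.74 against 2.15 for Cidea. The part of these transcripts in the values of the 6 genes was not tested. Stellate cell markers summed to 5214 in the FR30 high-fat, 5130.0 in the FR30 standard, 4359 in the control high-fat and 4320.4 in the control standard sample. Reln was the brightest of them, with 2402, 1769.5, 1787 and 1587 in the same order. Of 7 tested between FR30 and control offspring on the high-fat diet, Lum (-0.84) and Des (-0.34) went against the sums. The sums therefore do not describe every stellate marker, and the part of these markers was not tested either. In whole tissue, fewer cells of a type and less RNA per cell cannot be told apart.

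Bco1 and Bco2 were high in the same pair of samples. Bco1 had a signal of 969.6 (STDEV 14.8) in the FR30 high-fat sample, 678 (9.31) in FR30 standard, 653 (22.5) in control high-fat and 915 (19.5) in the control standard sample. The FR30 high-fat and control standard samples were high and overlapped within 2 STDEV of each other, and the FR30 standard and control high-fat samples were low and also overlapped, with a gap between the pairs. Bco1 was 1.54-fold higher on the high-fat than on the standard diet in FR30 offspring (log2 difference 0.63, propagated STDEV 0.036) and 1.51-fold lower in control offspring (-0.59, 0.073). Relative to control offspring it was 1.62-fold higher in FR30 offspring on the high-fat diet (0.70, 0.068), whereas on the standard diet its log2 difference of -0.52 lay under 1.5-fold. These folds lie close to the limit for a count, and without background removal none of them reached it, the widest being 1.49-fold.

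Bco2, the mitochondrial enzyme of eccentric cleavage, followed the same order. Its signal was 591 (STDEV 35.3) in the FR30 high-fat sample, 397 (24.8) in FR30 standard, 386 (14.3) in control high-fat and 555 (20.2) in the control standard sample. As with Bco1, the high pair and the low pair each overlapped within 2 STDEV and lay apart from each other. Its log2 difference with the high-fat diet was 0.80 (1.75-fold; propagated STDEV 0.18) in FR30 offspring and -0.75 (1.68-fold lower; 0.11) in control offspring. FR30 minus control offspring gave 0.87 (1.82-fold; 0.14) on the high-fat diet and -0.69 (1.61-fold lower; 0.15) on the standard diet. Without background removal only the comparison of FR30 with control offspring on the high-fat diet stayed past the limit, at 1.53-fold.

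With each gene's log2 values centred on their mean over the 4 samples, the patterns of Bco1 and Bco2 differed by a root mean square of 0.084, and 9 of the 8459 other genes detected on all samples were closer to Bco1 than Bco2 was. Both genes varied over less than 1 log2 unit, a range in which many genes lie close together, so this closeness is a description of 4 values.

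Rdh16 is a short-chain dehydrogenase that oxidises retinol to retinal and, as known from rodents, also acts on steroids. Its signal was 1054 (STDEV 25.2) in the FR30 high-fat sample, 719 (19.9) in FR30 standard, 501 (31.0) in control high-fat and 1588 (73.2) in the control standard sample. All 4 levels lay apart by more than 2 STDEV on each side, with control standard highest and control high-fat lowest. Rdh16 was 1.58-fold higher with the high-fat diet in FR30 offspring (log2 difference 0.66, propagated STDEV 0.063) and 4.01-fold lower in control offspring (-2.00, 0.14). FR30 offspring had 2.53-fold more than control offspring on the high-fat diet (1.34, 0.13) and 2.51-fold less on the standard diet (-1.33, 0.088). Of these, the difference with diet in FR30 offspring was under 1.5-fold without background removal, at 1.47-fold.

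The paralog Rdh7 (Rdh3 in the table) lies near Rdh16 on chromosome 7 in RefSeq, with 3 annotated entries between them, of which Rdh9 is the 1 protein-coding gene. Rdh7 had signals of 2513 in the FR30 high-fat, 2615 in the FR30 standard, 2336 in the control high-fat and 2670.2 in the control standard sample, and did not follow Rdh16. Its log2 difference with the high-fat diet was -0.05 in FR30 and -0.20 in control offspring. Probe sequences were not used here, so how far each probe could also bind a paralog was not tested.

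**Figure D1:**
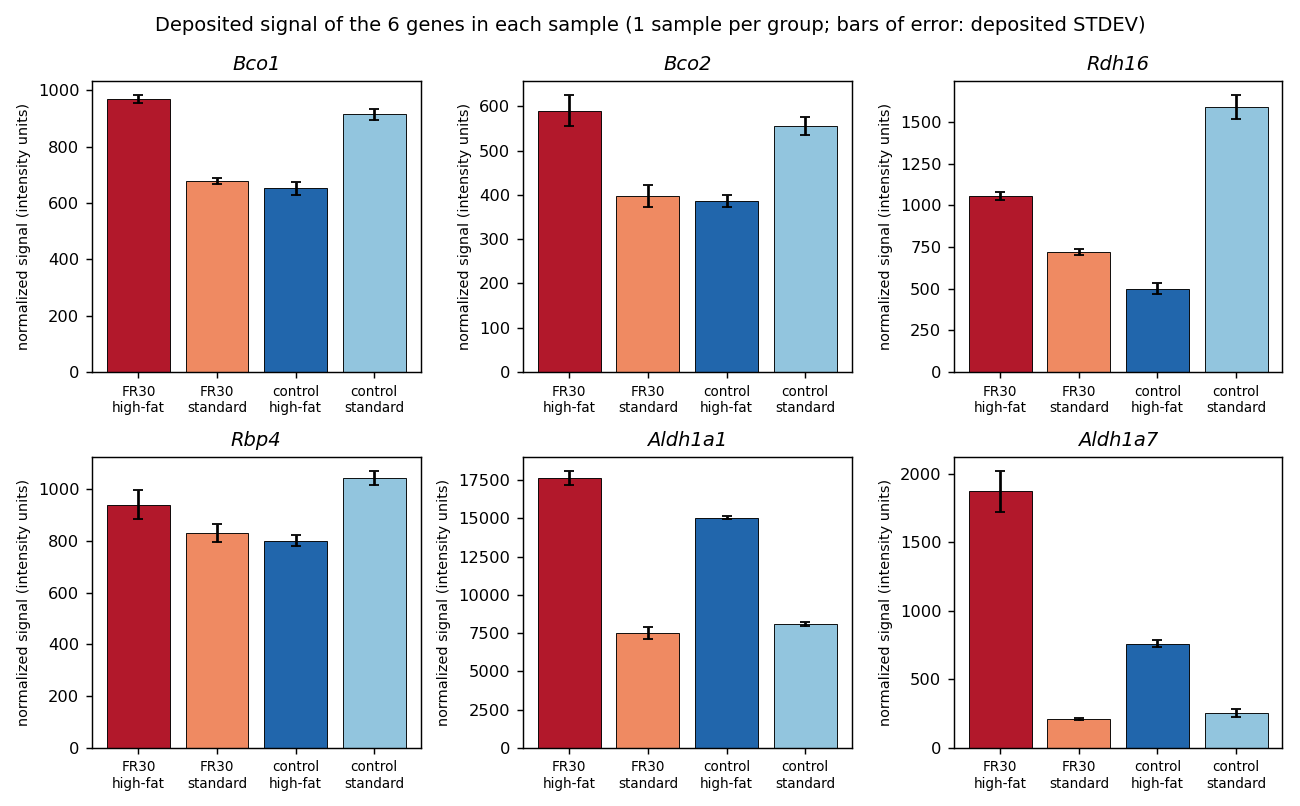
Deposited normalized signal (vertical axes, intensity, starting at 0) of each of the 6 genes in the FR30 high-fat, FR30 standard, control high-fat and control standard samples, with error bars of the deposited STDEV. Bco1, Bco2 and Rdh16 are high in the FR30 high-fat and control standard samples, Aldh1a1 and Aldh1a7 in both high-fat samples.

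Aldh1a1, a cytosolic retinal dehydrogenase, was high in both high-fat samples. Its signal was 17657 (STDEV 475) in the FR30 high-fat sample, 7512 (370.3) in FR30 standard, 15053 (121) in control high-fat and 8075 (119) in the control standard sample. The 2 standard-diet samples overlapped within 2 STDEV, and the 2 high-fat samples lay above them and apart from each other. Aldh1a1 was 2.35-fold higher with the high-fat diet in FR30 offspring (log2 difference 1.23, propagated STDEV 0.082) and 1.85-fold higher in control offspring (0.89, 0.025). FR30 and control offspring differed by 0.26 on the high-fat and -0.09 on the standard diet, both under 1.5-fold.

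Aldh1a7 is a rodent paralog of Aldh1a1. Its signal was 1872 (STDEV 152) in the FR30 high-fat sample, 211 (4.59) in FR30 standard, 758 (24.6) in control high-fat and 255 (26.8) in the control standard sample. Both standard-diet values lay near the background, overlapped within 2 STDEV and had detection p-values of 0.00848 in the FR30 and 0.00364 in the control sample. With the high-fat diet Aldh1a7 was 23.8-fold higher in FR30 offspring (log2 difference 4.57, propagated STDEV 0.16) and 5.29-fold higher in control offspring (2.40, 0.34). The sizes depend on the background: on the signals as deposited, only quantile-normalized, the folds were 8.88 in FR30 and 2.97 in control offspring. FR30 minus control offspring gave 1.49 (2.80-fold; 0.14) on the high-fat diet. On the standard diet the difference was -0.69 (1.61-fold lower; 0.34), a size that the overlap of both values and a fold of 1.21 without background removal limit.

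Other gene groups differed with diet alongside both aldehyde dehydrogenases. Of 7 measured markers of the pericentral zone, the hepatocytes around the central vein, 5 were higher with the high-fat diet in FR30 and 3 in control offspring, with median log2 differences of 0.78 and 0.55. Of all genes, 3.86% were higher with the high-fat diet in FR30 and 2.61% in control offspring. Axin2 and Tbx3, among the pericentral markers counted in FR30 offspring, lay near the background. They had 301 and 253 in the FR30 high-fat and 242 and 183 in the FR30 standard sample. Tbx3, also counted in control offspring, had 284 in the high-fat and 186 in the standard sample there. Whether they passed 1.5-fold without background removal was not tested. The summed signal of the pericentral list was 70082 in the FR30 high-fat, 72979 in the FR30 standard, 81105 in the control high-fat and 79139 in the control standard sample. Cyp2e1 made up most of each sum, with 49238, 58793, 57296 and 59030 in the same order. Its log2 difference with diet was -0.05 in FR30 and -0.02 in control offspring, so the sums do not describe the other markers. Whether the Cyp2e1 probe was at the ceiling of the scale was not tested. All 3 detected erythroid markers were also higher with the high-fat diet in both kinds of offspring. The erythroid list summed to 19242 in the FR30 high-fat, 11505 in the FR30 standard, 18299 in the control high-fat and 11141 in the control standard sample. Hbb made up most of each sum, with 18345, 10911.5, 17564.5 and 10567.5 in the same order. Alas2 lay near the background, with 242, 197, 229 and 196.5 in that order. The part of the pericentral and erythroid markers in the values of Aldh1a1 and Aldh1a7 was not tested.

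Rbp4 carries retinol from the liver in plasma. Its signal was 939.6 (STDEV 55.1) in the FR30 high-fat sample, 829.9 (36.1) in FR30 standard, 801 (22.4) in control high-fat and 1045 (27.2) in the control standard sample. Sorted by level the samples ran control standard, FR30 high-fat, FR30 standard and control high-fat, each overlapping the next within 2 STDEV. The control high-fat and FR30 standard values both lay apart from the control standard value, but no comparison passed 1.5-fold. Its log2 difference with the high-fat diet was 0.22 in FR30 and -0.45 in control offspring, and FR30 minus control gave 0.27 on the high-fat and -0.40 on the standard diet. The signs are those of Bco1, Bco2 and Rdh16.

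Counted over the 6 genes, the high-fat diet in FR30 offspring gave 5 genes higher and 0 lower, the exception being Rbp4, against a background of 3.86% of 9562 genes higher and 3.40% lower. In control offspring 2 genes were higher (Aldh1a1 and Aldh1a7) and 3 lower (Bco1, Bco2 and Rdh16), against 2.61% of 9485 genes higher and 3.41% lower. On the high-fat diet 4 genes were higher in FR30 than in control offspring and 0 lower, against 1.87% of 9458 genes higher and 1.59% lower. On the standard diet 0 genes were higher and 3 lower, against 2.13% of 9545 genes higher and 2.23% lower. The median log2 difference of the 6 genes was 0.73 with diet in FR30 offspring, -0.52 with diet in control offspring, 0.78 between FR30 and control offspring on the high-fat diet and -0.60 on the standard diet. Over all genes tested, these medians lay within 0.014 of 0. Because the genes were chosen on these signals, nothing is read from their counts against the background, and the comparisons share samples, so that their counts are not separate observations.

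The pattern that Bco1, Bco2 and Rdh16 shared was a difference with diet that was negative in control and positive in FR30 offspring, each past 1.5-fold. Such a pattern was held by 0.225% of the 8460 genes detected on all samples, which is 19 genes. Without background removal Bco1, Bco2 and Rdh16 did not hold it. Their folds with diet in FR30 offspring were then 1.43 (Bco1), 1.49 (Bco2) and 1.47 (Rdh16). With an offset of 50 Bco1 fell short of it in control offspring (-0.56). The FR30 high-fat and control standard signals both lay above the other samples in 13.2% of the 8460 genes, among them Bco1, Bco2, Rdh16 and Rbp4. Subtracting the diet difference in control from that in FR30 offspring gave log2 values of 2.66 for Rdh16, 2.17 for Aldh1a7, 1.55 for Bco2, 1.22 for Bco1, 0.67 for Rbp4 and 0.34 for Aldh1a1. The first 4 passed 2-fold, as did 1.10% of the 8460 genes in that direction. Aldh1a7 came to its value otherwise than the other 3, with a positive difference in both kinds of offspring that was larger in FR30.

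**Figure D2:**
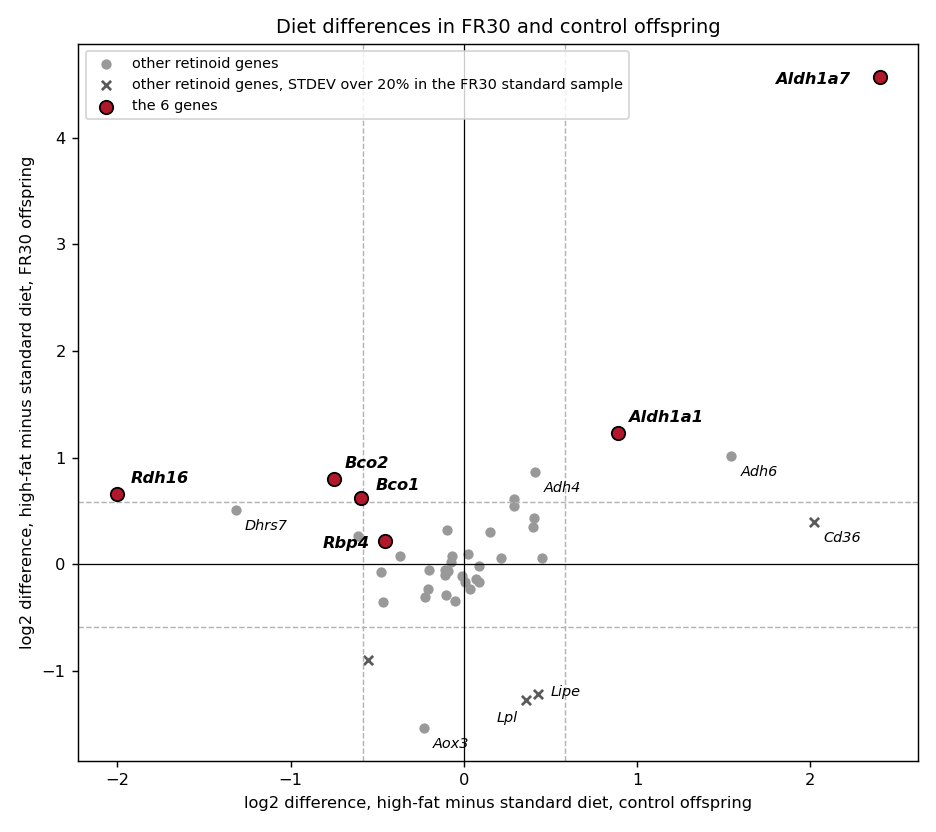
Log2 difference with the high-fat diet in FR30 offspring (vertical) against that in control offspring (horizontal) for the 6 genes (red) and the other detected retinoid genes (grey; crosses mark a STDEV over 20% in the FR30 standard sample), with dashed lines at 1.5-fold. Rdh16 (-2.00 in control, 0.66 in FR30), Bco2 and Bco1 lie at upper left, Aldh1a1 and Aldh1a7 at upper right.

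Among genes detected on all samples, those with the closest centred log2 pattern over the 4 samples were named for the 3 members that varied over at least 1 log2 unit. For Rdh16 they were Dhrs7, Ugt2b17 and Cyp2d4 (Cyp2d22 in the table), at root mean square differences of 0.298, 0.309 and 0.315. Dhrs7, a short-chain dehydrogenase, had signals of 7346 in the FR30 high-fat, 5202 in the FR30 standard, 4932 in the control high-fat and 11669 in the control standard sample. For Aldh1a1 they were Atp6v1c2 (0.019), Neu2 (0.042) and Sult1c2al1 (0.064), the last a sulfotransferase gene by name. Atp6v1c2 and Neu2 lay near the background, with 312 and 324 in the FR30 high-fat and 215 and 213 in the FR30 standard sample. Whether their closeness held without background removal was not tested. Nearest to Aldh1a7 came Gsta3, a glutathione transferase (0.597), LOC287167 (0.642) and Cyp7a1, which starts bile acid synthesis (0.857), all farther off than those of the other members. On the standard diet Gsta3 had 185 in the FR30 and 213 in the control sample, and LOC287167 had 184 and 241, near the background as well. Cyp7a1 had 3708 in the FR30 high-fat, 766 in the FR30 standard, 4428 in the control high-fat and 1159 in the control standard sample, and unlike Aldh1a7 was not highest in the FR30 high-fat sample.

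The rest of the pathway was read from a list of 66 other genes, of which 54 had a row and 40 were detected on at least 1 sample. With the high-fat diet in FR30 offspring 3 of 40 tested were higher and 5 lower, against 3.86% and 3.40% of all genes. In control offspring 2 of 40 were higher and 3 lower, against 2.61% and 3.41%. FR30 against control offspring gave 3 of 39 higher and 0 lower on the high-fat diet, against 1.87% and 1.59%. On the standard diet it gave 7 of 39 higher and 1 lower, against 2.13% and 2.23%. The medians of the list lay between -0.05 and 0.04 in the 4 comparisons. In 5 of these genes (Cd36, Lpl, Lipe, Pnpla2 and Rbp7) the STDEV in the FR30 standard sample was over 20% of the signal, and without them the count lower with diet in FR30 offspring was 1 and the count higher in FR30 offspring on the standard diet was 2.

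Carotenoid uptake was represented by Scarb1 and Cd36, membrane receptors that take up carotenoids and lipids. Scarb1 differed by less than 0.1 on the log2 scale in every comparison. Cd36 had 3076 in the FR30 high-fat, 2392 (STDEV 898) in the FR30 standard, 3321 in the control high-fat and 924 in the control standard sample. Its log2 difference with the high-fat diet was 2.02 in control offspring and 0.40 in FR30 offspring, the second resting on the wide FR30 standard value. From the non-normalized intensities, processed in the same way, it was 2.04 in control offspring and 0.77 in FR30 offspring, both past 1.5-fold.

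Among the other oxidoreductases of retinol and retinal, the alcohol dehydrogenases Adh6 and Adh4 had their highest signals in the FR30 high-fat sample. Adh6 had 1964 in the FR30 high-fat, 1041 in the FR30 standard, 1306 in the control high-fat and 540.3 in the control standard sample, and passed 1.5-fold in all 4 comparisons. Adh4 had 1563 in the FR30 high-fat, 925 in the FR30 standard, 849 in the control high-fat and 679 in the control standard sample. It passed the limit with diet in FR30 offspring (0.86) and between FR30 and control offspring on the high-fat diet (0.99). Dhrs7 was lower with diet in control offspring (-1.32) and had 0.51 in FR30 offspring, the signs of Rdh16 but under 1.5-fold in FR30 offspring.

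Of the 3 other detected genes that oxidise retinal to retinoic acid, none was 1.5-fold higher with the high-fat diet. Aldehyde oxidase Aox3 had 1228 in the FR30 high-fat, 3304 in the FR30 standard, 1609.9 in the control high-fat and 1854 in the control standard sample, and was lower with diet in FR30 offspring (-1.54). Aldh1a3 lay near the background, with 215 in the FR30 high-fat, 202 in the FR30 standard, 193 in the control high-fat and 224 in the control standard sample, and had -0.61 with diet in control offspring. Aldh1a2 was not detected on any sample. Of the genes that break down retinoic acid, Cyp26a1, Cyp26b1 and Cyp26c1 were not detected on any sample, and Cyp2c22, a rat cytochrome P450 that hydroxylates retinoic acid, differed by at most 0.21.

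Lipases that can release retinol from its esters were limited by the FR30 standard sample. Lpl had 1479 in the FR30 high-fat, 3387 (STDEV 4196) in the FR30 standard, 1339 in the control high-fat and 1079 in the control standard sample, and a log2 difference of -1.27 with diet in FR30 offspring. In the non-normalized table, processed in the same way, the difference of Lpl had the opposite sign (0.72), with signals of 1771 in the FR30 high-fat and 802 in the FR30 standard sample. Lysosomal acid lipase Lipa had 0.55 with diet in FR30 and 0.29 in control offspring, under the limit, and 0.70 in FR30 offspring in the non-normalized table, past it. Stra6l, an Rbp4 receptor of the liver, differed by at most 0.34 in size. Ttr, the plasma partner of Rbp4, had non-normalized signals between 49512 and 50183 on all 4 samples, where those of Cyp2c22 ran between 32106 and 43663 with the brightness of the arrays. Whether the Ttr probe was at the ceiling of the scale was not tested, and its differences were not read.

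Read per gene, no detected retinoid receptor passed 1.5-fold in any comparison. Rarb had 2 probe rows in the non-normalized table, given below, and differences of single probe rows were not computed. With the high-fat diet in FR30 offspring Rxrg had 0.44, Rarb 0.30, Rara 0.08 and Rxra -0.10, and in control offspring Rxrg had 0.40, Rarb 0.15, Rara -0.07 and Rxra -0.11. Of 9 genes with a row that are known to respond to retinoic acid, 5 were detected on at least 1 sample. Read per gene, none of them passed the limit in any comparison. Rarb and Cyp26a1 are on this list as well. Lrat and Dhrs3, of the same list, were not analysed here.

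**Figure D3:**
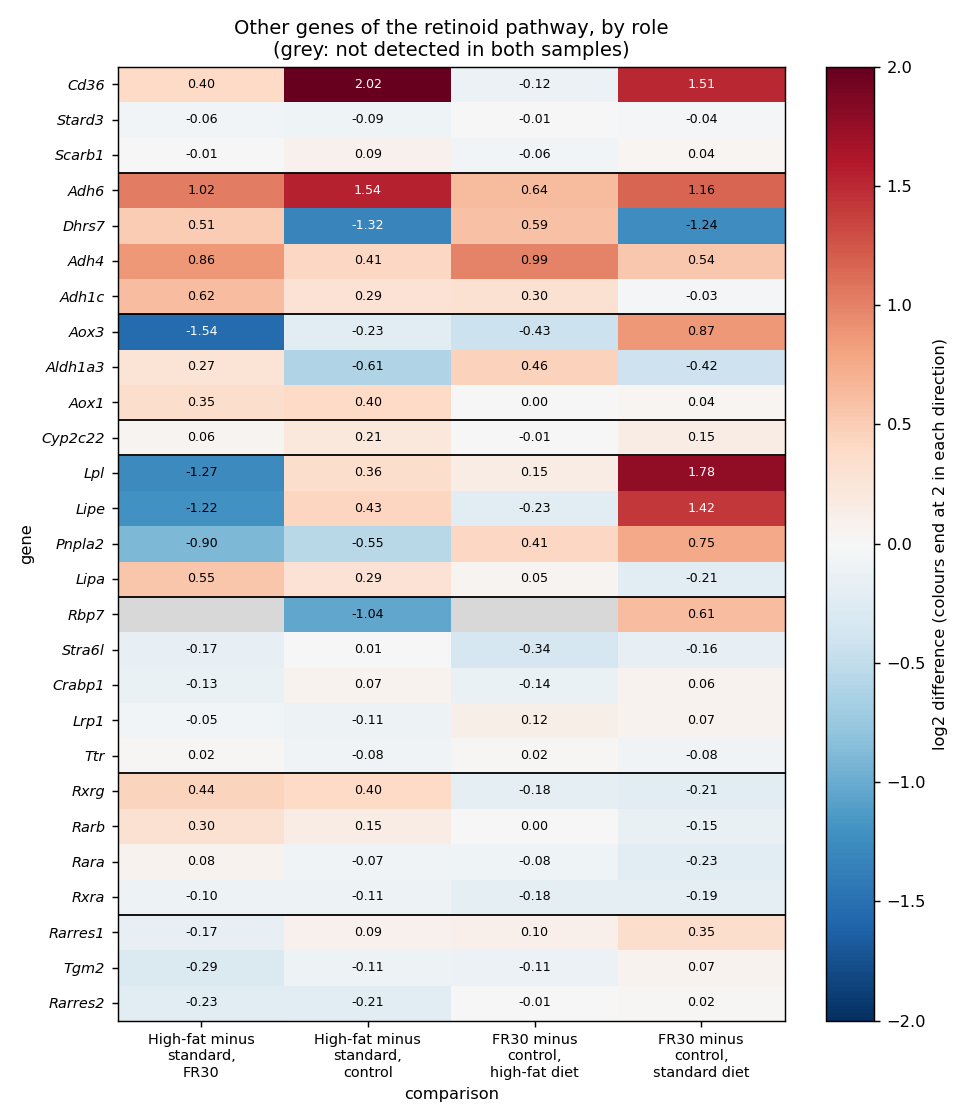
Log2 differences (colour and printed value) of the other retinoid genes named by role in the 4 comparisons, for genes with a difference in at least 2 of them, with grey where a gene was not detected in both samples. Cd36, Adh6 and Dhrs7 carry the widest differences with diet in control offspring (2.02, 1.54 and -1.32), and read per gene no receptor passes 1.5-fold.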

How the data were processed

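Total liver RNA of 4 samples, 1 per group, was hybridised as biotin-labelled cRNA to 1-colour Illumina BeadArrays. The deposited normalized table gives a signal intensity, a STDEV and a detection p-value per gene and sample, per the file headers; the tool was GenomeStudio, per the submitters' processing notes, which give no normalization method here. A STDEV of 1.63 times its signal occurs, which needs at least 3 measurements.

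Background was estimated from the detection p-values over 21187 rows and removed with limma 3.58.1 (normexp, offset 16; R 4.3.3), then values were quantile-normalized and taken to log2. A detection p-value under 0.05 counted as detected, and a gene detected in 1 sample of a pair got a bound. Of several rows of a gene the brightest was used. Symbols were updated through RefSeq: 9908 rows were current and 4823 synonyms. The propagated STDEV combines both deposited STDEVs. The deposited series value table was identical to the normalized signals.

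A second deposited table, of non-normalized intensity, has probe rows whose identifiers did not match (r of 0.059 to 0.066), so it was aligned by order and mean level (lowest r 0.999 on 4 samples), placing 20435 genes on 1 row. Because mean level guided the alignment, that r follows in part from it. The r of centred log2 values, which the alignment did not use, was 0.958 over 7889 genes. The steps were tested on simulated data. Alternatives changed the background removal, offset, scaling, detection limit, row rule, fold limit and table. The 6 genes and the lists were chosen with earlier results of these data known. Named genes are all 6 members, the genes of fixed pathway lists by role, and the 3 closest patterns for members varying over at least 1 log2 unit. One gene of the lists is not reported here.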

Additional observations from a re-analysis of the deposited data

Results flagged for a closer look

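In 6 genes a difference had opposite signs in the groups compared, and with 1 sample per group none of these contrasts was tested. The FR30 minus control diet differences came to 2.66 log2 units for Rdh16 (0.66 in FR30, -2.00 in control offspring), 1.55 for Bco2 (0.80 and -0.75), 1.22 for Bco1 (0.63 and -0.59) and 0.67 for Rbp4 (0.22 and -0.45). The same values separate the FR30 minus control differences on the high-fat and the standard diet, since both come from the same 4 samples. For Aldh1a7 and Aldh1a1 only these prenatal differences had opposite signs, with 2.17 between 1.49 on the high-fat and -0.69 on the standard diet for Aldh1a7, and 0.34 between 0.26 and -0.09 for Aldh1a1. For Aldh1a1 and Rbp4 all of the single prenatal differences lay under 1.5-fold.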

How the results depend on the processing

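All 210 differences of the 6 genes recomputed under 7 settings kept their sign. The detection limit of 0.01 and the mean over the rows of a gene could not change any of these values. Each of the 6 genes had 1 row and detection p-values of at most 0.00848. Without background removal 21 of 30 moved by more than their propagated STDEV, and with an offset of 50 1 did. Without background removal the count of genes higher with diet in FR30 offspring was 2 in place of 5, the count lower with diet in control offspring 1 in place of 3, and the count lower in FR30 than control offspring on the standard diet 1 in place of 3. The count higher in FR30 than control offspring on the high-fat diet was then 3 in place of 4. With an offset of 50 the count lower with diet in control offspring was 2 in place of 3. The count lower in FR30 than control offspring on the standard diet was also 2 with that offset, and 2 where intervals of 2 STDEV had to lie apart. At 2-fold the counts were 2 higher with diet in FR30 offspring, 1 higher and 1 lower with diet in control offspring, 2 in place of 4 higher in FR30 than control offspring on the high-fat diet, and 1 lower on the standard diet. Over all genes, counts without background removal were 163 higher and 137 lower with diet in FR30 offspring against 369 and 325, 110 and 135 in control offspring against 248 and 323, 60 and 44 between FR30 and control offspring on the high-fat diet against 177 and 150, and 85 and 72 on the standard diet against 203 and 213. With an offset of 50 the higher counts were 246, 165, 116 and 145 in the same order, and the lower counts 233, 216, 91 and 132. In the non-normalized table the list genes with diet in FR30 offspring were 5 in place of 3 higher and 2 in place of 5 lower, and in control offspring 2 higher, as before, and 2 in place of 3 lower. Between FR30 and control offspring they were 2 in place of 3 higher on the high-fat diet, and 3 in place of 7 higher on the standard diet, with 0 and 1 lower as before. This and the alternatives for the contrast of diet differences were added after seeing the data. No paired analysis was possible because each group holds 1 sample. Signals near the background, such as those of Aldh1a7 on the standard diet, limit the size of its folds, and the single sample per group limits all of them.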

Other observations

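The retinoic acid receptor gene Rarb had 1 row in the normalized table and 2 probe rows in the non-normalized one. The dimmer row had 664 in the FR30 high-fat, 309 in the FR30 standard, 671 in the control high-fat and 588 in the control standard sample. The brighter had 2369 in the FR30 high-fat, 1459 in the FR30 standard, 1946 in the control high-fat and 1523 in the control standard sample. Non-normalized signals carry the overall brightness of each array, so they are given as values and not compared.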
